A study of Mus musculus with 13 samples.

Results

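The collagen genes were read as the rows of the gene-level table whose symbol has the form Col, a number, a and a number. This form was met by 43 of 23236 rows, of which 11 encode chains of fibrillar collagens, 8 chains of basement membrane collagens and 24 chains of other collagens. The study used C2C12 cells, a line of mouse myoblasts, the proliferating precursors of muscle fibres, and most of its 13 samples are chromatin profiles that were not analysed here. Collagen levels came from 2 poly(A)-selected RNA-seq libraries of myoblasts kept in growth medium, labelled siNC and siLinc-Yy1. By common usage these names stand for a control siRNA and an siRNA against the long noncoding RNA Linc-Yy1, and the comparison asks how transcript levels differ when that RNA is targeted. The labels give no dose, time after transfection or clone. With a single library on each side nothing below has a replicate check, and no test was run here. The authors' own calls and q-values, cited below, also compare these 2 libraries without replicates.

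Collagens are secreted proteins of 3 chains that wind into a triple helix through repeats of glycine followed by other residues, often proline and hydroxyproline. Fibrillar collagens assemble into the banded fibrils of connective tissue, type IV collagen forms the meshwork of basement membranes, and type VI collagen forms beaded filaments between them. In skeletal muscle each fibre is wrapped by a basement membrane, and muscle precursor cells lie beneath it in contact with these proteins.

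Levels are given as FPKM, fragments per kilobase of transcript relative to the depth of the library, which allows genes of different length to be set side by side. Differences are log2 ratios with siNC as the base, so that positive values are higher in siLinc-Yy1, and 1 FPKM was added to each level first. Unless the authors rescaled the libraries to each other, the steps between low FPKM values correspond to a depth near 65.9 M fragments (siNC) and 47.7 M (siLinc-Yy1). All 8 myoblast markers reached 1 FPKM, among them Myod1 at 62.5 FPKM in siNC against 67.0 FPKM in siLinc-Yy1. All 8 markers of differentiated muscle did so as well, with a summed level of 161.0 FPKM in siNC against 208.4 FPKM in siLinc-Yy1, but they did not move as one. The authors' deposited table marked Ckm (14.5 and 24.9 FPKM), Myh4 (6.86 and 11.1 FPKM) and Tcap (1.87 and 4.70 FPKM) as higher and Myh3 (3.08 and 1.85 FPKM) as lower. Of 8 fibroblast markers 4 reached 1 FPKM, with summed levels of 200.1 and 239.6 FPKM over all 8. Gsn, which many cell types express, went from 155 to 195 FPKM and accounts for that gap, as Cd34 (22.7 and 23.3 FPKM), Pdgfrl (17.0 and 16.3 FPKM) and Pdgfra (4.80 and 4.69 FPKM) were close in both, while Tcf21 and Lum were below 0.1 FPKM in both libraries. Of 8 cartilage and tendon markers, Sox9 and Scx reached 1 FPKM, while Acan, Comp, Tnmd and Sp7 stayed below 0.1 FPKM. The locus given for Scx overlaps the rows of Bop1 and Heatr7a. Of the 8 macrophage markers 2 reached 1 FPKM, with Ptprc and Emr1 below 0.1 FPKM, and no endothelial marker did. The part of differentiated or fibroblast-like cells in the collagen levels was not tested, and in bulk RNA fewer cells of a type and less RNA per cell cannot be told apart.

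The growing myoblasts expressed a limited set of collagens, and none of those measured differed 1.5-fold between the libraries. Of the 43 genes, 16 had a mean level of 1 FPKM or more: 6 fibrillar, 4 basement membrane and 6 other chains. Among these 16, the ratio of siLinc-Yy1 over siNC ran from 0.834 for Col16a1 to 1.31 for Col6a3. None of the 16 was at least 1.5-fold higher, against 3.28% of the 11792 rows of at least 1 FPKM, and none was at least 1.5-fold lower, against 0.517%. At 2-fold the count was also none, against 1.39% and 0.178% of these rows. No collagen was called in the authors' deposited table, which called 1.29% of the rows with status OK higher and 0.327% lower. The lowest q-value of the 16 in the authors' deposited table was 0.846, from a test with 1 library per condition. Over the 11792 rows of at least 1 FPKM the median log2 difference was -0.021, with 45.4% above 0. The median was 0.085 over the 16 collagens, with 11 above 0 and 5 below. That sign depended on the scaling. The median over the 16 was -0.19 with the summed FPKM of the libraries made equal, when 2 were above 0. After centring on the median of those 11792 rows it was 0.11. Over all 43 collagens the median was -0.0060, but the added 1 FPKM holds the 27 scarcer ones near 0.

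**Figure D1:**
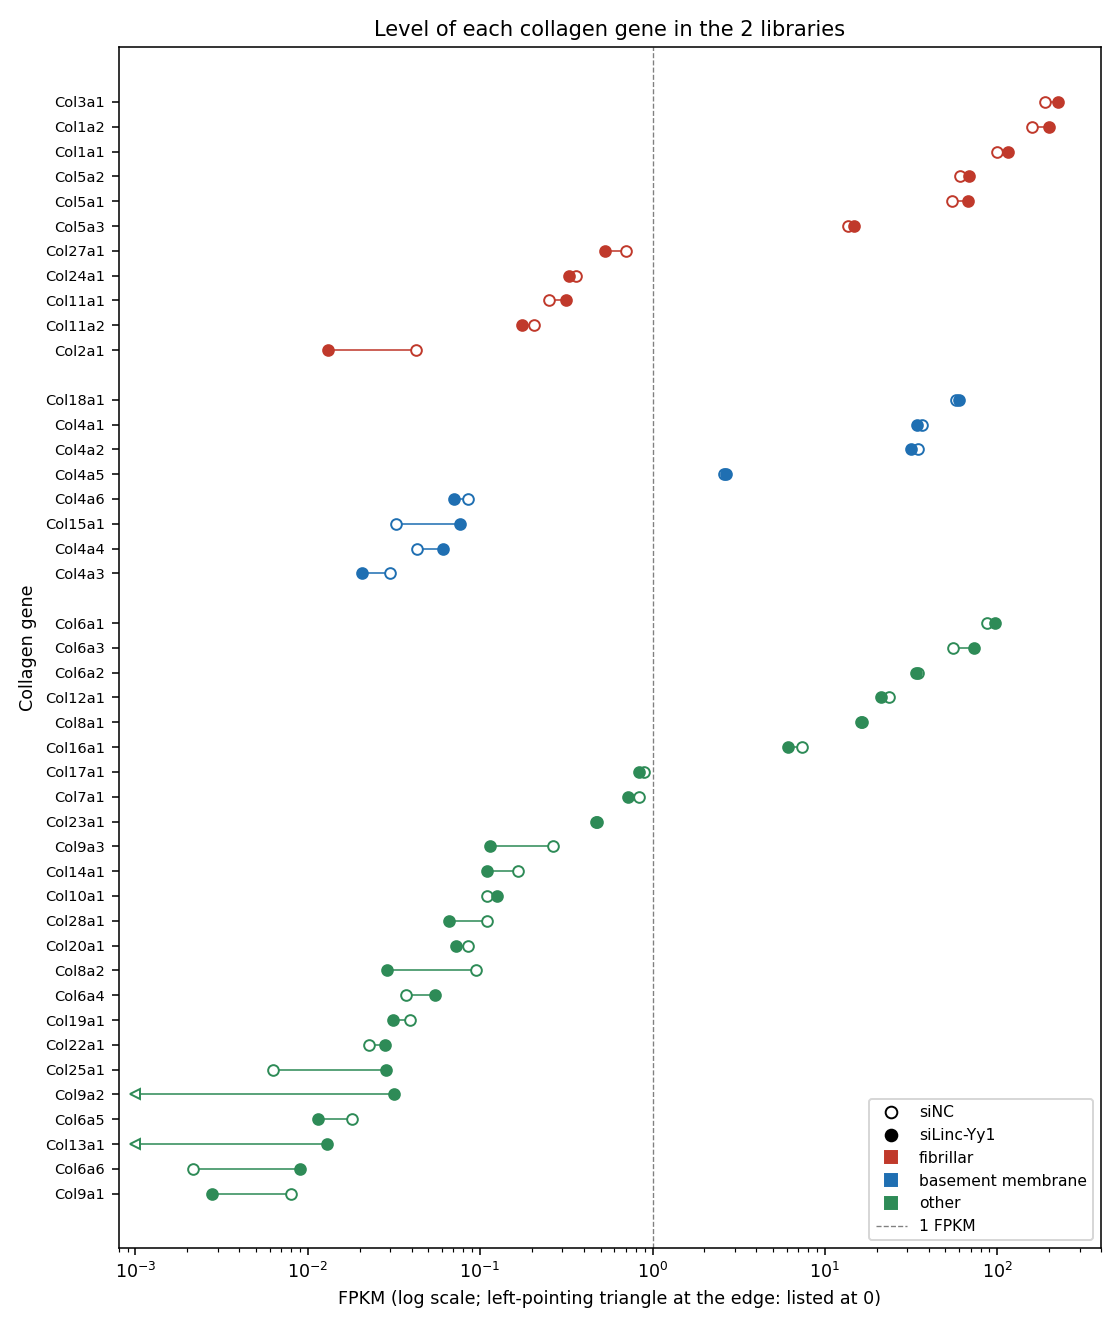
FPKM of each of the 43 collagen genes in siNC (open circles) and siLinc-Yy1 (filled circles), on a log axis, coloured by class and joined by a line, with 1 library per condition. The 16 genes right of the dashed line at 1 FPKM keep their circles close together, from Col3a1 at the top of the range to Col4a5 at 2.59 and 2.66 FPKM, and the wider gaps lie among genes below 1 FPKM.

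The fibrillar collagens were the most abundant class, with 61.6% of the summed collagen FPKM in siNC and 64.7% in siLinc-Yy1. Col3a1, the chain of the type III homotrimer that is mixed into thin type I fibrils, had the highest level of all, 189 FPKM in siNC against 226 FPKM in siLinc-Yy1. Its locus is on chromosome 1 from 45368383 to 45406551 (mm9). Col1a2, the second chain of type I collagen, the main fibril protein of tendon, bone and skin, measured 158 and 199.7 FPKM (chromosome 6, 4455697 to 4491543). Col1a1, the other type I chain, measured 99.0 and 116 FPKM (chromosome 11, 94797584 to 94813170). At the authors' scaling all 3 were higher in siLinc-Yy1, with log2 differences of 0.26 for Col3a1, 0.34 for Col1a2 and 0.22 for Col1a1, while with summed FPKM made equal these became -0.064, 0.015 and -0.095. Together they made up 47.7% of the summed collagen FPKM in siNC and 50.5% in siLinc-Yy1.

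Type V collagen starts and limits the growth of type I fibrils, and its 3 chains were all measured. Col5a1 was at 54.6 FPKM in siNC against 67.6 FPKM in siLinc-Yy1 (chromosome 2, 27741945 to 27895030). Col5a2 measured 60.7 and 68.5 FPKM, and Col5a3 measured 13.6 and 14.8 FPKM. The log2 differences were 0.30 for Col5a1, 0.17 for Col5a2 and 0.12 for Col5a3. The remaining fibrillar chains were below 1 FPKM. They were Col27a1 (0.705 and 0.530 FPKM), Col24a1 (0.361 and 0.326 FPKM), and the cartilage collagens Col11a1 (0.251 and 0.313 FPKM), Col11a2 (0.206 and 0.176 FPKM) and Col2a1 (0.042 and 0.013 FPKM).

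All 6 fibrillar chains of at least 1 FPKM were thus higher in siLinc-Yy1 at the authors' scaling, with a median log2 difference of 0.24, against 1 of 6 with equal totals. Higher values were common at the levels of these chains other than Col5a3. Values above 0 were found for 89.4% of the 1020 rows of 50 to 100 FPKM and 96.8% of the 529 rows of 100 to 250 FPKM. Col5a3 lay among the 2519 rows of 10 to 20 FPKM, of which 31.96% were above 0. With the summed FPKM of the 2 libraries made equal, the median over all rows of at least 1 FPKM moved from -0.021 to -0.30. That of the 6 fibrillar chains moved to -0.080. Directions below are at the authors' scaling, and with equal totals Col1a2 and Col6a3 alone of the 16 collagens stayed above 0. Centring on the median of all rows of at least 1 FPKM turned the sign of none of the 16.

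The 250 bases before the annotated transcript start are shown for the most abundant fibrillar chains with an entry among the RefSeq promoter windows, Col3a1 and Col1a2, and for the 2 collagens of over 50 FPKM that lay farthest above genes of similar level, Col5a1 and Col6a3. Col1a1, Col5a2 and Col12a1 had no window. Sequences are from RefSeq on GRCm38.p6, read 5′ to 3′ on the gene's strand. Capitals mark, on either strand, the CCAAT box, the TATA box letters TATAAA and the GC box letters GGGCGG.
Col3a1, chr1:45311288-45311537, plus strand: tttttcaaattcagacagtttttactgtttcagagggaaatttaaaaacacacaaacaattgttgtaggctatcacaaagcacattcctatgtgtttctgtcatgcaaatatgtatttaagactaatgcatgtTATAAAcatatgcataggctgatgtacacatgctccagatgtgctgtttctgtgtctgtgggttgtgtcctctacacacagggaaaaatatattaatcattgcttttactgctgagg
Col1a2, chr6:4505368-4505617, plus strand: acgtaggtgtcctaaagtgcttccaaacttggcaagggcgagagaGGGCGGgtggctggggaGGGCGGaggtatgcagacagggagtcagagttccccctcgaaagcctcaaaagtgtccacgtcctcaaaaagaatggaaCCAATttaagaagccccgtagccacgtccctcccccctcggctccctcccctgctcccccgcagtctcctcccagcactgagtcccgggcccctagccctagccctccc
Col5a1, chr2:27886175-27886424, plus strand: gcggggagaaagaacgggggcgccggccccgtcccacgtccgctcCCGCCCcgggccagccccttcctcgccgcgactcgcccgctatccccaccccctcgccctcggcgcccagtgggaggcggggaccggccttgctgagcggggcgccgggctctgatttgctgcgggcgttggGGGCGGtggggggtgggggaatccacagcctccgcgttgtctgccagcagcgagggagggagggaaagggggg
Col6a3, chr1:90843972-90844221, minus strand: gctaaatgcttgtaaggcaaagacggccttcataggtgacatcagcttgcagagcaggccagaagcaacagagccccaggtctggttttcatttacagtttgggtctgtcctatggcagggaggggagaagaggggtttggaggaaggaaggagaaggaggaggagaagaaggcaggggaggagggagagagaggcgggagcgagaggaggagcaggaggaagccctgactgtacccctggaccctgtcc

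The 4 stretches differ in GC content and in the motifs they hold. With -1 as the last base before the start, Col3a1 held TATAAA at -117 to -112, and its GC content of 35.2% was the lowest of the 15 windows of collagens of at least 1 FPKM. Col1a2 held CCAAT at -109 to -105 and GGGCGG at -205 to -200 and at -188 to -183, with a GC content of 62.0%. Col5a1 held GGGCGG at -205 to -200, on the opposite strand, and at -73 to -68, and its GC content of 76.4% was the highest of the 15. Col6a3 held none of the 3 motifs, with a GC content of 57.2%. Over all 32851 RefSeq windows the median GC content was 52.4%.

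Across the collagen windows, CCAAT was in 7 of the 15 from collagens of at least 1 FPKM and in 6 of the 23 from lower collagens, against 33.8% of all windows. GGGCGG was in 10 of the 15 and 12 of the 23, against 32.7%, and TATAAA in 1 of the 15 and 4 of the 23, against 12.4%. The median GC content was 62% over the 15 and 57.6% over the 23, against 52.4% over all windows. The part of GC content in these counts was not tested. The letters GCCATNTT, a core of the known Yy1 motif, were in none of the 38 collagen windows and in 3.91% of all windows. Both strands were searched, no motif of the 4 contains another, and a match or its absence describes these letters in this window only. The 38 windows belong to 35 collagen genes, and those of Col4a1 and Col4a2 cover part of the same stretch.

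Basement membrane collagens held 14.1% of the summed collagen FPKM in siNC and 11.98% in siLinc-Yy1. Col18a1, whose C-terminal fragment is endostatin, was the highest of them, at 57.4 FPKM in siNC against 59.6 FPKM in siLinc-Yy1 (chromosome 10, 76514924 to 76629275). Col4a1 and Col4a2 encode the chains of the common type IV heterotrimer. Col4a1 measured 36.6 and 34.3 FPKM (chromosome 8, 11198423 to 11312826), and Col4a2 measured 34.9 and 31.7 FPKM (chromosome 8, 11312829 to 11449287). The log2 differences were -0.089 for Col4a1 and -0.14 for Col4a2, so that both type IV chains were lower in siLinc-Yy1 while Col18a1 was at 0.054 (-0.26 with equal totals). Col4a5, a chain of the type IV collagen of kidney and lung basement membranes, measured 2.59 and 2.66 FPKM, a difference of 0.028. About 170.5 fragments per kilobase in siNC and 127 in siLinc-Yy1 lie behind this lowest of the 16 levels.

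The other basement membrane chains were barely detected. Col4a6, Col4a4 and Col4a3, which join Col4a5 in tissue-restricted type IV trimers, measured 0.085 and 0.071 FPKM, 0.043 and 0.061 FPKM, and 0.030 and 0.021 FPKM. Col15a1, the relative of Col18a1 found at muscle basement membranes, measured 0.033 and 0.077 FPKM. The median log2 difference of the 4 measured chains was -0.031, with 2 above and 2 below 0, and became -0.33 with none above 0 when totals were made equal. Type IV genes lie beside each other in the genome with their starts facing: the deposited loci lie 2 bases apart for Col4a1 and Col4a2, 71 bases apart for Col4a4 and Col4a3, and 1342 bases apart for Col4a6 and Col4a5. Of these neighbours Col4a1 and Col4a2 were at nearly the same level, while Col4a5 was above and Col4a6 below 1 FPKM.

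Type VI collagen, whose 3 main chains are mutated in the Ullrich and Bethlem muscle disorders, held 19.0% of the summed collagen FPKM in both libraries. Col6a1 was at 87.2 FPKM in siNC against 97.1 FPKM in siLinc-Yy1 (chromosome 10, 76171537 to 76188789). Col6a2, its neighbour on the same chromosome, measured 34.9 and 34.0 FPKM. Col6a3, the long chain that also carries the endotrophin fragment, measured 55.6 and 72.9 FPKM (chromosome 1, 92663435 to 92740548). The 3 chains did not differ alike, at log2 0.15 for Col6a1, -0.038 for Col6a2 and 0.38 for Col6a3, the highest value of the 16 collagens. The alternative chains that can replace Col6a3 were close to 0, with Col6a4 at 0.037 and 0.054 FPKM, Col6a5 at 0.018 and 0.011 FPKM and Col6a6 at 0.0022 and 0.0090 FPKM.

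Of the 9 collagens that bind to the surface of fibrils or resemble those that do, 2 reached 1 FPKM, and both had lower values in siLinc-Yy1 without passing 1.5-fold. Col12a1, which is abundant in tendon and muscle connective tissue, was at 23.6 FPKM in siNC against 21.2 FPKM in siLinc-Yy1, a log2 difference of -0.15. Col16a1 measured 7.36 and 6.13 FPKM, a difference of -0.23 and the lowest value of the 16. Both lay within the 10th to 90th percentile of rows of similar level, and values above 0 were found for 58.6% of the rows of 20 to 50 FPKM and 27.6% of those of 1 to 10 FPKM. Col14a1, another such collagen of muscle and tendon, measured 0.167 and 0.109 FPKM. Col8a1, a short chain of the sheet-like collagen of vessels and the cornea, was at 16.2 and 16.4 FPKM, and its partner Col8a2 measured 0.094 and 0.029 FPKM.

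Most collagens lay within the range of genes of similar level. Each was compared with the running median over itself and the 300 rows nearest in mean FPKM, since abundant genes as a whole were higher in siLinc-Yy1. The difference less this median was -0.038 in the middle of the 16 collagens, with 6 above and 10 below 0. The range from the 10th to the 90th percentile of the neighbouring rows, which holds 80% of them by construction, held 13 of the 16. Above it lay Col6a3, higher than 92.9% of its neighbouring rows, and Col5a3, higher than 90.9%. Below it lay Col4a2, higher than 8.80% of its neighbouring rows.

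The gap between classes was smaller on this footing. Fibrillar and basement membrane collagens differed by 0.27 in their median log2 difference, and the fibrillar chains were also the more abundant, with a median of 79.9 FPKM in siNC against 35.7 FPKM. Less the running median, the class medians were 0.0082 for fibrillar, -0.10 for basement membrane and -0.073 for other collagens. Within the fibrillar class, Col1a1 (-0.015) and Col1a2 (-0.0061) lay on the running median, Col3a1 (-0.14) below it, and Col5a1 (0.16) and Col5a3 (0.18) above it, with Col5a2 at 0.022. Col4a1 (-0.14) and Col4a2 (-0.18) lay below it together. With 6, 4 and 6 chains and no replicate, these gaps describe the 2 libraries.

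**Figure D2:**
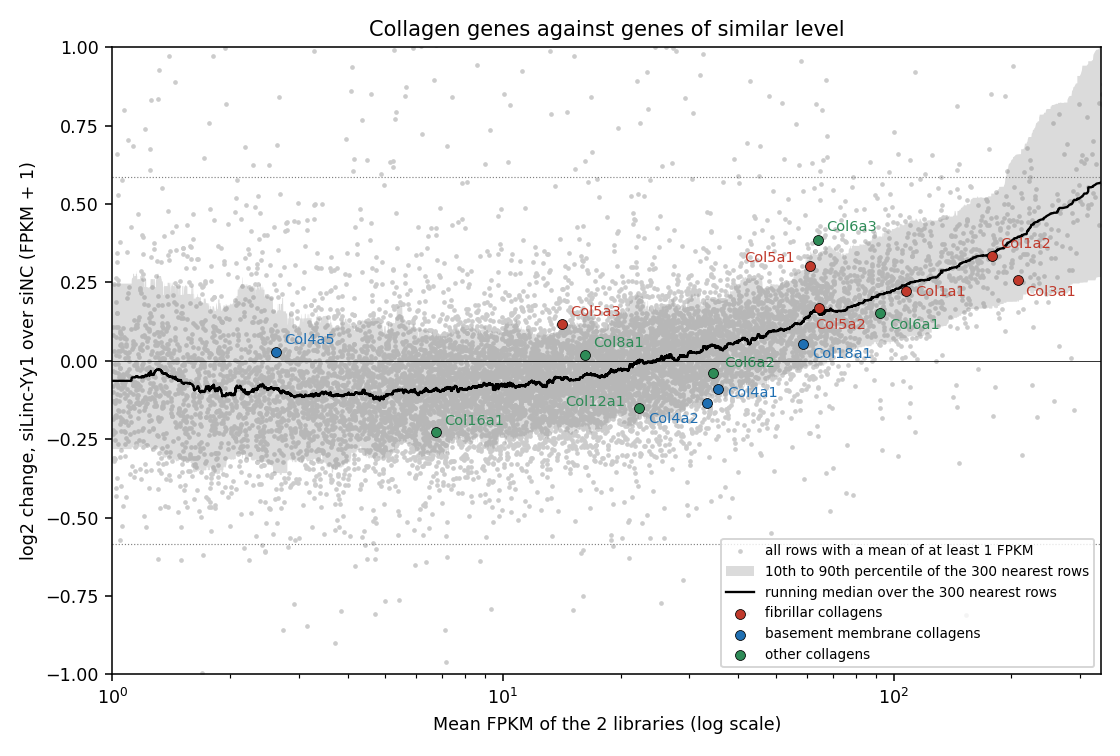
Log2 difference of siLinc-Yy1 over siNC (FPKM + 1) against mean FPKM on a log axis for all rows of at least 1 FPKM (grey; values beyond the axes are not shown), with the running median over the 300 nearest rows (line), their 10th to 90th percentile (band), 1.5-fold (dotted) and the 16 collagens coloured by class. The median line climbs with level, and 13 of the 16 collagens lie inside the band, with Col6a3 and Col5a3 above it and Col4a2 below it.

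Ratios between partner chains within a library do not depend on the scaling between libraries. Col4a1 and Col4a2, which join as 2 copies and 1 copy in a trimer, had a ratio of 1.05 in siNC and 1.08 in siLinc-Yy1. For type I collagen, which holds 2 copies of the Col1a1 chain and 1 of Col1a2, the order of the transcripts was the opposite, with Col1a2 over Col1a1 at 1.60 and 1.72. Col3a1 over Col1a1 was 1.91 and 1.95. Col5a1 over Col5a2 was 0.899 and 0.987, and Col5a3 over Col5a1 was 0.249 and 0.219. The type VI chains showed the widest shifts, with Col6a1 over Col6a2 at 2.50 and 2.86, and Col6a3 over Col6a2 at 1.59 and 2.15. That last ratio differed by 0.43 on the log2 scale, while Col1a2 over Col1a1 differed by 0.11, Col4a1 over Col4a2 by 0.048 and Col4a5 over Col4a1, at 0.0707 and 0.0774, by 0.13.

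**Figure D3:**
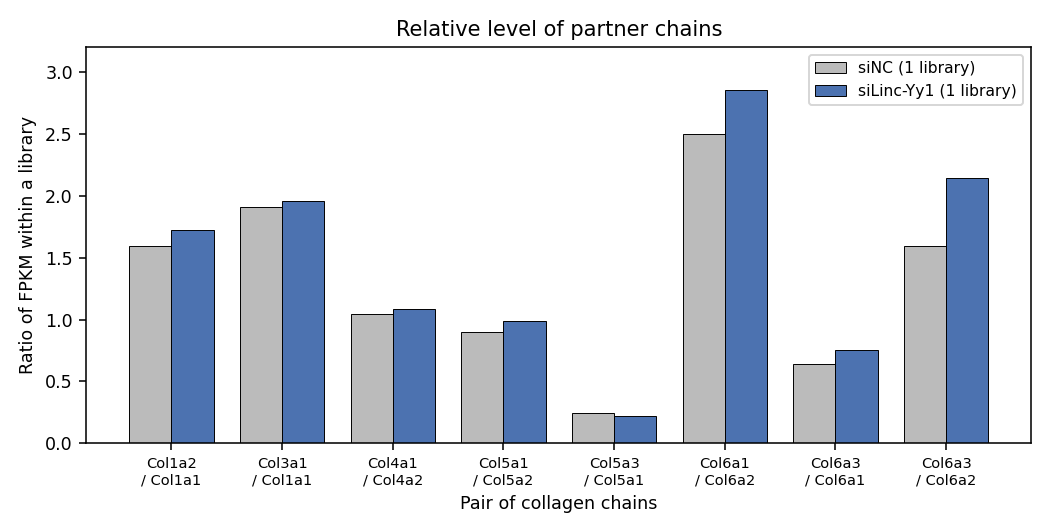
Ratio of FPKM between collagen chains within each library, for siNC (grey) and siLinc-Yy1 (blue), 1 library each, so the bars carry no error. The Col4a1 to Col4a2 ratio stays near 1, and the bars differ most for Col6a3 over Col6a2, at 1.59 and 2.15.

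The other 27 collagens were below a mean of 1 FPKM and together held 0.525% of the summed collagen FPKM in siNC and 0.405% in siLinc-Yy1. The 16 above and the 27 below were well separated, as the lowest mean above was 2.62 FPKM for Col4a5 and the highest below was 0.861 FPKM for Col17a1. Col17a1, the transmembrane collagen of skin hemidesmosomes, measured 0.888 and 0.834 FPKM, and Col7a1, which forms the anchoring fibrils of skin, 0.835 and 0.723 FPKM. The transmembrane Col23a1 stood at 0.479 and 0.473 FPKM. Levels below 0.1 FPKM in both libraries were found for 16 of the 27, and Col9a2 and Col13a1 were listed at 0 in siNC, with 0.032 and 0.013 FPKM in siLinc-Yy1. Col10a1, the collagen of hypertrophic cartilage, measured 0.110 and 0.125 FPKM, but its row shares a locus with Nt5dc1.

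Larger ratios among these scarce genes rest on few fragments. Of the 27, 10 were higher and 17 lower in siLinc-Yy1, and the authors' deposited table tested 8 of them. Col9a3, a cartilage collagen, measured 0.264 and 0.115 FPKM, or about 17.4 and 5.47 fragments per kilobase, and its locus is shared with Tcfl5. Its q-value in the authors' deposited table was 0.497. Col8a2, with 0.094 and 0.029 FPKM, rests on about 6.20 and 1.37 fragments per kilobase. For a transcript of 5 kb, 1 fragment corresponds to 0.0030 FPKM in siNC against 0.0042 FPKM in siLinc-Yy1. The remaining scarce members ranged from 0.0063 to 0.110 FPKM in siNC and from 0.0028 to 0.072 FPKM in siLinc-Yy1. They were Col28a1, Col20a1, Col19a1 and Col22a1, with Col25a1 and Col9a1.

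Most genes on the lists for making, exporting and remodelling collagen were measured, least so the degrading enzymes with their inhibitors (5 of 14) and the receptors (4 of 10). Of 96 genes on 9 lists, 71 reached 1 FPKM, with a median log2 difference of 0.13, or 0.041 less the running median and -0.18 with equal totals. The list medians below are at the authors' scaling. With equal totals, of the 9 medians that of the proline, serine and glycine enzymes alone was above 0, at 0.26. At least 1.5-fold higher were 5 of the 71 and none was lower, against 3.28% and 0.517% of the 11792 rows of at least 1 FPKM. The 5 were Tmem38b, Timp1, Aldh18a1, Shmt2 and Psph, and the authors' deposited table called Tmem38b, Aldh18a1 and Psph. Shmt2 had the status FAIL there, so it holds no test result. With equal totals Tmem38b alone stayed 1.5-fold higher and 2 genes were 1.5-fold lower. Timp1 lies at a level where such ratios were common, as 56 of the 120 rows of 250 to 500 FPKM were 1.5-fold higher. The loci of Timp1 and Shmt2 overlap other rows of the table.

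Enzymes and chaperones of chain modification and folding were measured for 21 of 22 genes, with a median difference of 0.16 and 18 above 0. Serpinh1, the collagen-specific chaperone Hsp47, was at 302 FPKM in siNC against 451 FPKM in siLinc-Yy1. P4hb, a subunit of prolyl 4-hydroxylase and a disulfide isomerase, measured 266 and 377 FPKM, and the catalytic subunit P4ha1 48.8 and 54.7 FPKM. Plod2, a lysyl hydroxylase, was at 27.01 and 27.08 FPKM. Less the running median, P4hb stood at -0.053 and Serpinh1 at 0.0053, although for Serpinh1 that median is the one held constant at the highest levels. Creb3l1, a transcription factor that activates type I collagen genes in bone, measured 84.5 and 115 FPKM, and P4ha3 measured 13.1 and 16.3 FPKM.

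Tmem38b was the exception on that list. It encodes a cation channel of the endoplasmic reticulum whose loss causes a form of brittle bone disease. Its level was 12.9 FPKM in siNC against 55.6 FPKM in siLinc-Yy1, a ratio of 4.32, on chromosome 4 from 53838917 to 53874890 (mm9).

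Export genes (6 of 8 measured) had a median of 0.062. Sec23a, of the vesicle coat that carries procollagen out of the endoplasmic reticulum, measured 26.5 and 30.7 FPKM, Sec13 of the same coat 126 and 146 FPKM, and Sec24d 43.2 and 47.3 FPKM. Trappc2, the tethering factor sedlin, measured 7.62 and 4.87 FPKM, a difference of -0.56. Propeptide processing genes (5 of 8) had a median of 0.0028. Bmp1, the main C-propeptidase, measured 64.6 and 72.1 FPKM, its enhancer Pcolce 278 and 411 FPKM, and Pcolce2 37.0 and 34.0 FPKM. Less the running median, Bmp1 stood at -0.0053, Pcolce at -0.0073 and Pcolce2 at -0.17. Crosslinking enzymes (5 of 5) had a median of 0.17, with Lox, lysyl oxidase, at 81.8 and 103 FPKM, Loxl1 at 44.6 and 51.1 FPKM, Loxl3 at 38.2 and 43.2 FPKM and Loxl2 at 26.3 and 24.7 FPKM.

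Among proteoglycans that coat fibrils (4 of 8 measured, median -0.11), Bgn measured 247 and 353 FPKM, Ogn 29.2 and 24.1 FPKM and Dcn 14.6 and 12.5 FPKM. Less the running median, Bgn stood at -0.0093, Ogn at -0.29 and Dcn at -0.15. The locus given for Ogn overlaps the rows of Aspn, Cenpp, Ecm2 and Omd. Receptors (4 of 10, median 0.090) were represented by Itgb1, the common integrin beta chain, with 99.2 and 119 FPKM. Ddr2, a receptor kinase for fibrillar collagen, measured 20.6 and 22.6 FPKM, and Ddr1 measured 28.0 and 29.1 FPKM. Mrc2, which takes up collagen fragments, measured 36.1 and 37.5 FPKM. The collagen-binding integrin alpha chains were all below 1 FPKM, with Itga10 at 0.949 and 0.804 FPKM, Itga11 at 0.632 and 0.648 FPKM, Itga1 at 0.085 and 0.086 FPKM and Itga2 at 0.012 and 0.013 FPKM.

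Degrading enzymes and their inhibitors (5 of 14, median 0.18) were led by the inhibitor Timp1, with 231 and 397 FPKM and a difference of 0.78. Less the running median Timp1 stood at 0.24, higher than 79.2% of its neighbouring rows, and the list's median was -0.063, with 2 above and 3 below 0. Mmp14, a membrane-bound collagenase, measured 100.2 and 113 FPKM, and Mmp2, the gelatinase it activates, 69.2 and 71.1 FPKM. Timp2 measured 166 and 192 FPKM and Timp3 24.3 and 26.8 FPKM. The secreted collagenases Mmp13 (0.633 and 0.436 FPKM) and Mmp8 (0.025 and 0.016 FPKM) were below 1 FPKM.

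Proline and glycine are the residues that the triple helix needs most, and the enzymes that supply them and serine, a source of glycine, differed among themselves. Of the 9, 6 were higher and 3 lower in siLinc-Yy1, with a median of 0.50, or 0.32 less the running median. Aldh18a1, the first enzyme of proline synthesis, measured 34.6 and 56.2 FPKM, and Shmt2, which makes glycine in mitochondria, 75.2 and 125 FPKM. Psph and Psat1 of serine synthesis measured 16.9 and 30.2 FPKM and 93.4 and 139.96 FPKM. Among the lower were the proline enzyme Pycrl (35.8 and 31.7 FPKM) and Shmt1 (11.0 and 10.3 FPKM). Genes of the TGF-beta pathway, a main inducer of collagen transcription, had a median of 0.035, with 7 above and 5 below 0. Tgfbr1 (4.53 and 3.31 FPKM), Tgfb1 (48.5 and 57.5 FPKM) and Smad3 (23.2 and 25.97 FPKM) were among the genes that differed most on that list.

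**Figure D4:**
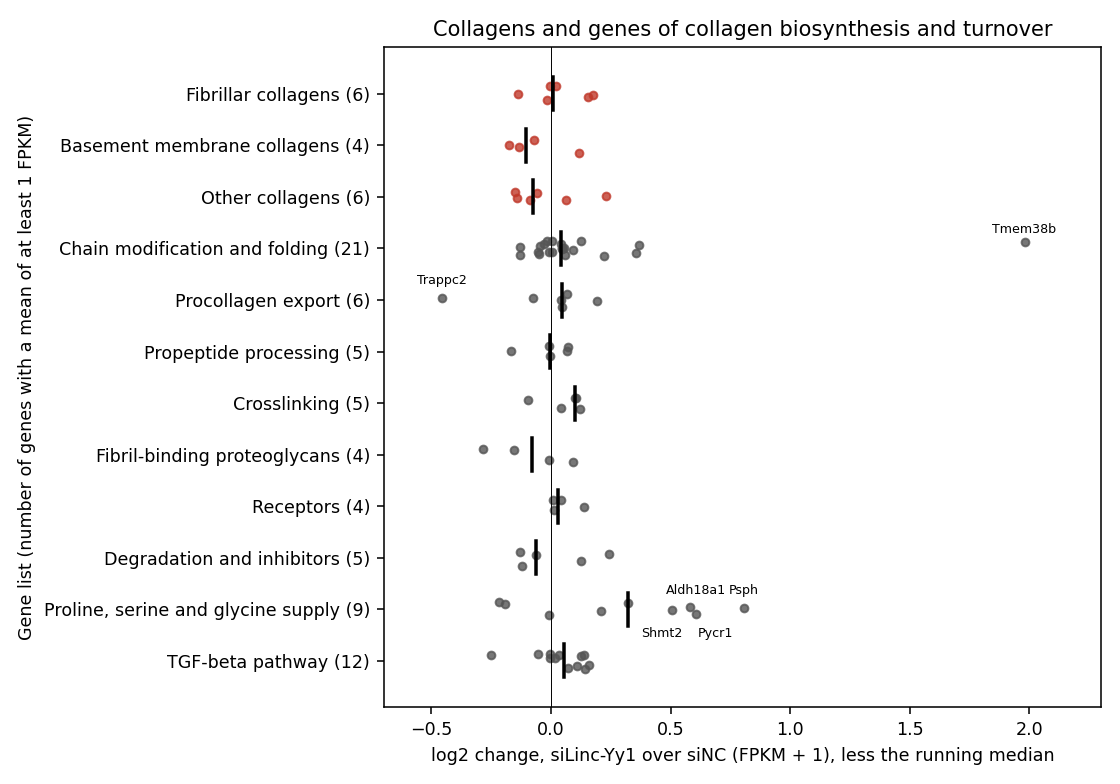
Log2 difference of siLinc-Yy1 over siNC (FPKM + 1), less the running median over the 300 rows of most similar level, for the collagen classes (red) and 9 lists of pathway genes (grey), 1 point per gene of at least 1 FPKM and a black bar at each median. Most points lie near 0, and Tmem38b stands far to the right at 1.98.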

How the data were processed

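The deposited values are FPKM per gene and condition, estimated by the authors with Cuffdiff, per the file headers. Its p-value and q-value cells hold the authors' own test between these 2 libraries, according to the file headers, and were deposited by them. Build mm9 and the tools Cuffdiff 2.0.4, Cufflinks 2.1.1 and TopHat2 2.0.4 are named in the submitters' processing notes. Annotation, strand use and scaling between libraries: not given in the sources used here. The table is present as 2 identical copies, and its FPKM columns were assigned to siNC and then siLinc-Yy1, following the header. File starts count from 0, as 208 of 211 short microRNA rows showed, so printed starts are 1 higher.

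The log2 difference used a pseudocount of 1 FPKM, which understates changes of low genes, a mean of at least 1 FPKM and a fold of 1.5. The running median took each row and its 300 nearest and was held constant over the outermost rows. The steps of 685 and 578 low receptor rows gave whole fragments within 0.02 for 53.7% and 46.0%, so no count test was run. Of 4 collagen rows that overlap another row, Col7a1 and Col27a1 overlap microRNA rows listed at 0. Collagen classes, lists and alternatives were chosen with earlier results of these data known. Every collagen of at least 1 FPKM is named, and per pathway list up to 4 genes with the largest absolute difference plus 9 defining genes. Others were chosen after their values were seen. Python 3.11.15, numpy 2.4.6 and pandas 2.3.3 were used, and the procedure was tested on simulated data.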

Additional observations from a re-analysis of the deposited data

How the results depend on the processing

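No collagen was at least 1.5-fold higher or lower under any of the alternatives (pseudocounts of 0.1 and 5 FPKM, no filter, at least 5 FPKM, equal summed FPKM, centring on the median, status OK alone, 2-fold and the authors' calls). For scarce collagens the run without the filter could hardly show more, as the added 1 FPKM holds their log2 differences near 0. Plain FPKM ratios of some passed 1.5-fold, as for Col8a2 at 0.305 and Col15a1 at 2.35, both below 0.1 FPKM. The count at 2-fold was fixed once none passed 1.5-fold. The direction depended on which scaling was used. Centring on the median turned the sign of none of the 16 collagens, with 11 above 0 and a fibrillar median of 0.26. With equal summed FPKM, which lowers all genes, 2 of the 16 collagens were above 0 and 9 turned sign. The median became -0.19 over the 16, -0.080 for fibrillar, -0.33 for basement membrane and -0.32 for other collagens, and the log2 ratio of summed collagen FPKM went from 0.20 to -0.13. The pathway median became -0.18, with 1 gene higher and 2 lower by 1.5-fold. Over all rows of at least 1 FPKM this scaling gave 207 higher and 486 lower, in place of 387 and 61. Without the filter, the fibrillar median was 0.12 and its gap to the basement membrane median 0.11. The count of pathway genes that were higher was 8 after centring, 1 at 2-fold and 3 by the authors' calls, and 1 was lower with a pseudocount of 0.1. With the 100 or 1000 nearest rows, the medians less the running median over the 16 collagens and the 3 classes moved by at most 0.1, and single genes and pathway lists were not rerun with them. No paired analysis was possible because each condition has 1 library.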

Other observations

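The collagen gene Col26a1 stands in the table under its older symbol Emid2 (RefSeq synonym) and so was not among the 43, at 0.029 FPKM in siNC against 0.024 FPKM in siLinc-Yy1. Col4a3bp, whose name resembles a collagen but which encodes the ceramide transporter, measured 9.89 and 8.50 FPKM and was likewise left out.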
